A study of Mus musculus with 19 samples.

Results

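The regions described here are stretches of open chromatin that were called in fetal hematopoietic stem cells (HSC) and in none of the other 3 populations of the study. The authors deposited 1 list of reproducible ATAC-seq peaks per population, each made from 2 libraries. ATAC-seq uses a transposase that cuts and tags accessible DNA. Peaks of all 4 lists that shared at least 1 bp were merged, which gave 77133 regions. Of these, 6916 regions (8.97%) held peaks of the fetal HSC list only, equal to 14.3% of the 48286 distinct peaks of that list. The members were chosen by the presence and absence of peaks in these lists, so their presence in fetal HSC and absence elsewhere is the rule and not a result. All cells came from C57BL/6 mice. Fetal cells were sorted from liver at embryonic stage E14.5 and adult cells from bone marrow at 12 weeks of age. HSC were sorted as c-Kit+ Sca-1+ CD150+ cells without CD48, Flt3 or lineage markers. Lymphoid-primed multipotent progenitors (LMPP) were c-Kit+ Sca-1+ CD48+ Flt3+ cells without CD150. Adult sorts also left out CD11b+ cells, and the labels do not say whether fetal sorts did. RNA-seq of the same 4 populations covered 2 libraries of fetal HSC and 3 of each other population. Separate animals or pools are not named for the replicates, and every p-value therefore rests on the spread between libraries, which may be technical.

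Open chromatin marks promoters, where transcription starts, and distal elements such as enhancers, which can act on genes far away. HSC sustain all blood lineages. In the fetal liver they divide and expand, whereas in adult marrow most are quiescent, and a set of fetal genes, among them imprinted growth genes and RNA-binding proteins of the Lin28 and Igf2bp families, is switched down after birth.

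Only 293 of the members (4.24%) touched a RefSeq promoter window, which runs from 250 bases before to 50 bases after a start site. Promoter sequences are shown for 6 genes. Each lies inside a region found only in fetal HSC, and the RNA of its gene differed between fetal and adult HSC. The 6 were chosen after the RNA values were seen. Camk1g, Cgnl1, Hif3a, Olfm1, Ptgr1 and Tceal3 also met these terms and are not printed. The sequences are from RefSeq (GRCm38.p6, the assembly that mm10 coordinates refer to), run 5′ to 3′ in the direction of the gene and end at the base before the start site. Spats2 is at chr15:99126645-99126844 (plus strand), Mcts2 at chr2:152686948-152687147 (plus) and Pou2f2 at chr7:25132461-25132660 (minus). Ckb is at chr12:111672339-111672439 (minus), Themis2 at chr4:132796365-132796525 (minus) and Dnaja4 at chr9:54699083-54699282 (plus). Capitals mark matches, on either strand, to 5 short strings of bases. AGATAA is bound by GATA factors of erythroid and stem cells. TGTGGT is bound by RUNX factors. GGAAGT is the core of ETS factor sites. CAGCTG is an E-box of helix-loop-helix factors. GGGGCGGGG is bound by SP factors of CpG-rich promoters.
Spats2: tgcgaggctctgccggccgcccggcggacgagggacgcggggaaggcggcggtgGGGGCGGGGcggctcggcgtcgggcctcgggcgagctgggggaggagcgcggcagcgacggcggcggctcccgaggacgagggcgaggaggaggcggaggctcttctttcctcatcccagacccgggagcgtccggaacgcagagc
Mcts2: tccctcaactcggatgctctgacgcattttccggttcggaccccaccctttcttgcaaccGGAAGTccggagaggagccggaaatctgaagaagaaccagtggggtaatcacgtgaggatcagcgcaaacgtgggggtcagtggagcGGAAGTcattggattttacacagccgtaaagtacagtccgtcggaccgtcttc
Pou2f2: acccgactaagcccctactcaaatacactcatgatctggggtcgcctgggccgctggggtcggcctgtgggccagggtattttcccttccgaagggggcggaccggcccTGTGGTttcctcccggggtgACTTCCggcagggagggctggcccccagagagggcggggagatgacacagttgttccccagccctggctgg
Ckb: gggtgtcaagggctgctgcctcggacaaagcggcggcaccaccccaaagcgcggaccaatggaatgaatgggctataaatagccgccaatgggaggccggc
Themis2: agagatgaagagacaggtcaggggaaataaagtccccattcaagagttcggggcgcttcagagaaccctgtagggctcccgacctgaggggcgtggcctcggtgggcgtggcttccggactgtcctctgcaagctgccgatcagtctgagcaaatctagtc
Dnaja4: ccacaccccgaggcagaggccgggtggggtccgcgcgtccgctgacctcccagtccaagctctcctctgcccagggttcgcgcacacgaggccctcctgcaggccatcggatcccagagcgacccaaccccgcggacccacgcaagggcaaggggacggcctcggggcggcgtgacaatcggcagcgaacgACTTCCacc

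The Spats2 promoter held 31 CpG in 200 bases and 1 SP match. Mcts2 held 2 ETS matches, Pou2f2 held 1 RUNX and 1 ETS match, and Dnaja4 held 1 ETS match. In Ckb and Themis2 none of the 5 letter strings was found in the printed bases. Of the genes not printed, Tceal3 held 1 RUNX match, and Camk1g, Cgnl1, Hif3a, Olfm1 and Ptgr1 held none of the 5 strings. These matches were set against all promoters. Across the 296 RefSeq windows of which at least 150 bases lay inside a member, 17.2% held GGGGCGGGG, against 11.4% of all 32815 windows. That share was 12.8% in windows inside regions of adult HSC only, 17.1% for fetal and adult HSC, 24.4% for fetal HSC and fetal LMPP and 23.4% for all 4 populations. AGATAA was in 11.1% against 11.2%, TGTGGT in 13.9% against 16.8%, GGAAGT in 19.6% against 23.8% and CAGCTG in 17.6% against 16.3%. GC content averaged 59.9% in the windows of the members and 53.8% in all windows, and the mean number of CpG per window was 16.5 and 12.4. Windows inside regions open in all 4 populations averaged 62.3% GC and 23.3 CpG, and 4.98% of them held AGATAA. The share with GGGGCGGGG was lowest in all windows, which also had the lowest GC content. GGAAGT did not follow GC content in this way, at 19.6% in windows of the members and 29.0% in those of all 4 populations. The part of base composition in these shares was not tested. A match describes letters only.

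Members were narrow and weak peaks of their list. Their median width was 368.5 bp, against 563 bp for the whole fetal HSC list. Their median signal value, as the authors' peak caller gave it, was 5.20, with a range from 1.42 to 25.6, against a median of 7.51 for the list. The median member stood at the 19.9th percentile of the list by signal. The highest score in the list was reached by 3.41% of members and by 38.7% of the list. More than 1 summit was seen in 24.5% of members and in 48.6% of the list. Regions of adult HSC only, fetal LMPP only and adult LMPP only were much alike in this. Their median percentiles by signal, each in its own list, were 22.6, 16.7 and 21.2. Their median widths were 402, 357 and 398 bp, and 28.6, 20.8 and 24.7% had more than 1 summit. A peak missing from a list is not a measure of closed chromatin, and the lists differ in length, from 37156 distinct peaks in fetal LMPP to 53068 in adult HSC.

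At the edge of the rule, 29 members lay within 50 bp of a peak of another list, with a median signal of 4.28. Another 18 fetal HSC peaks overlapped a peak of another list by 50 bp or less, were left out for that reason, and had a median signal of 2.18. Most members were not near misses of this kind: 668 (9.66%) had a peak of another list within 1 kb, and the median gap to the nearest one was 12.1 kb.

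Few members lay near a start site. Only 395 (5.71%) were within 1 kb of a transcription start site of the count table, 1890 (27.3%) lay at 1 to 20 kb and 2411 (34.9%) at 20 to 100 kb. The share within 1 kb was 5.80% for regions of adult HSC only and 5.81% for fetal LMPP only, close to that of the members. The remaining 2220 members were over 100 kb from any start site, a share of 32.1% (Wilson 95% interval 31.0 to 33.2%). The share over 100 kb was 20.02% among the 9494 regions of adult HSC only, 21.9% among the 2356 of fetal LMPP only and 17.9% among the 8114 of adult LMPP only. Regions shared by fetal HSC and fetal LMPP had a similar value, 32.8%, whereas those shared by fetal and adult HSC had 22.2%. In regions open in all 4 populations it was 10.4%, and 41.8% of those lay within 1 kb of a start site. The median member had 8 start sites within 500 kb, against 10 for regions of adult HSC only and 12 for regions of all 4 populations. Over 500 kb of distance was seen for 351 members (5.08%), and 43.4% of members lay inside a gene, against 49.96% of regions of adult HSC only. With 1 list per population these shares have no spread between replicates, so the differences were not tested and intervals cover counting error only.

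**Figure D1:**
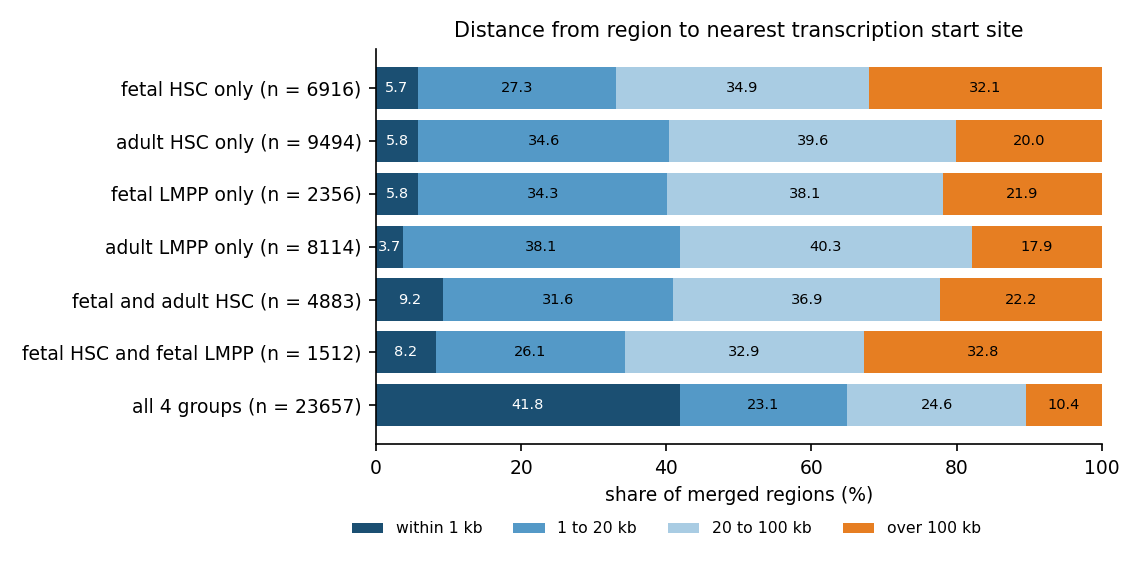
Share of merged regions (horizontal axis, %) by distance to the nearest transcription start site, for 7 classes of regions named by the populations whose lists hold them, with n regions in each. The orange part, over 100 kb, is 32.1% for fetal HSC only and 20.02% for adult HSC only.

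The stronger members were the more distant ones. Ranked by signal into 4 groups of 1729 members, 24.1, 27.2, 33.0 and 44.2% lay over 100 kb from a start site, from the weakest to the strongest group. Median distances in the same order were 28.1, 38.1, 47.0 and 79.5 kb. Regions of adult HSC only also showed larger shares at higher signal, from 13.8 to 27.0%, and each of their groups was below the matching group of fetal HSC. Regions shared by fetal HSC and fetal LMPP ran from 19.3 over 25.1 and 34.4 to 52.4%, above the members in the 2 strongest groups, with a median distance of 119 kb in the strongest. The rise with signal was thus also seen outside the members.

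**Figure D2:**
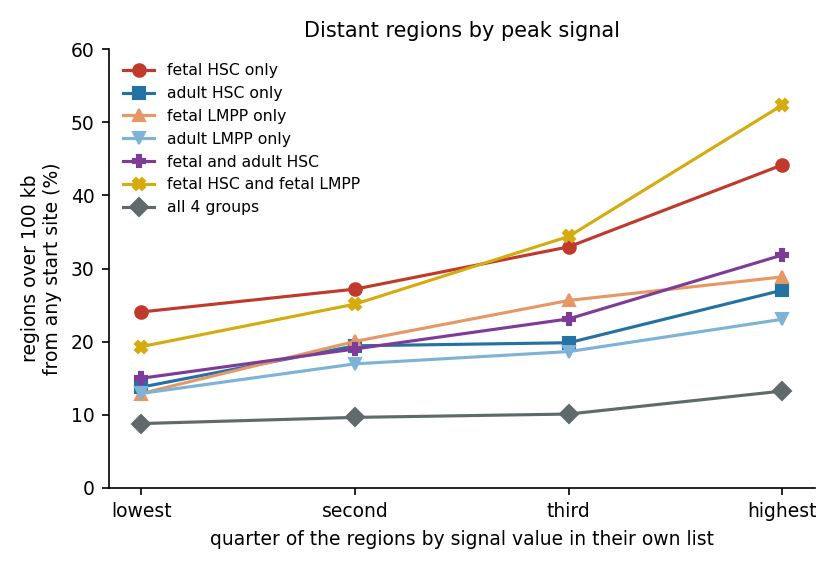
Share of regions over 100 kb from any start site (vertical axis, %) in 4 equal groups of regions ranked by signal within their own list (horizontal axis), for 7 classes of regions. Fetal HSC only runs from 24.1 to 44.2%, and fetal HSC and fetal LMPP from 19.3 to 52.4%, crossing above it in the 2 strongest groups.

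The strongest member of all was at chr5:61372872-61373330, with a signal of 25.6 (99.7th percentile of the list), 436 kb upstream of G6pd2, a retrogene copy of glucose-6-phosphate dehydrogenase. No other list had a peak within 1110 kb of it, and G6pd2 itself read 0.354 and 0.293 CPM (counts scaled to a common library total) in fetal HSC and 0.266 to 0.423 CPM in adult HSC. Another strong member, at chr16:63452005-63452727 (signal 17.1), lay downstream of Epha3, an ephrin receptor, 412 kb from its start. A member at chr17:61604178-61604672 (signal 16.9) lay downstream of Efna5, an ephrin ligand, 1280 kb from its start. A member at chr10:6473066-6473635 (signal 16.8) lay 315 kb upstream of Oprm1, the mu opioid receptor. The member at chr1:46196134-46196696 (signal 16.5) lay inside Dnah7b, a dynein heavy chain gene, 129 kb from its start. The highest level of these 5 genes in any of the 11 libraries was 1.46 CPM, for Efna5 in a fetal LMPP library. The 5 members had 0 to 5 start sites within 500 kb.

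Members were mostly scattered over the genome. On the autosomes they made up between 11.6% (chromosome 17) and 16.6% (chromosome 14) of the fetal HSC peaks of a chromosome, with 5 of 25 on the Y. With gaps of up to 10 kb, 289 groups of 2 or more formed, holding 596 members (8.62%), and the largest held 4. The first group of 4 spanned 7.63 kb at chr8:126075487-126083111, 56.1 kb upstream of Slc35f3, a solute carrier gene. The other spanned 16.2 kb at chr3:144361593-144377798, 157 kb upstream of Lmo4, which encodes a LIM-only transcription cofactor. By nearest start site within 100 kb, 3931 genes were linked to a member, 15.7% of the 25111 genes with a start site. Of these, 3301 had 1 member, 523 had 2 and 107 had 3 or more. Of genes with 3 or more members, 59 of 107 had enough counts to be tested, and of those with 1 member, 1915 of 3301. Some of the genes with most members had little RNA. Tfap2b, a transcription factor of neural crest and kidney, had 5 members and read 0 CPM in all 11 libraries. Hsd17b3, a testis steroid enzyme, had 4 members and also read 0 throughout. Eva1a had 5 members and 0.590 and 0.463 CPM in fetal HSC, against 0.0651 to 0.698 in adult HSC. Bach1, a repressor of heme and iron genes, had 4 members and was expressed at 10.5 and 14.6 CPM in fetal HSC and 5.83 to 11.7 CPM in adult HSC, with overlapping groups.

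RNA was not used to choose the regions, so the linked genes were tested for RNA differences. Library totals ran from 19.8 to 64.8 M counts, and 14720 genes passed the filter on low counts. The libraries of adult HSC (number 3), fetal LMPP (number 1) and adult LMPP (number 3) stood apart, deviating together from their group means. The genes of the sorting gate matched the labels: Slamf1, which encodes CD150, read 52.7 to 56.8 CPM in fetal HSC and at most 0.953 CPM in either LMPP group, and Cd48 read 11 to 22.6 CPM in fetal HSC and 271 to 398 CPM in fetal LMPP. Itgam, which encodes CD11b, read 29.7 to 37.1 CPM in fetal HSC and 2.31 to 4.41 CPM in adult HSC.

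Among the 2253 linked genes that passed the filter, 73 (3.24%) were higher in fetal than adult HSC and 69 (3.06%) were lower (edgeR quasi-likelihood, Benjamini-Hochberg adjusted p under 0.05). Of all genes tested, 2.07% were higher and 2.89% lower. The median log2 difference was 0.05 in the linked genes and 0.00 in all. The share of lower genes was close to that background and the share of higher genes somewhat above it. The counts varied with distance. Of 388 genes with a member within 1 kb of the start site, 192 passed the filter, and 17 of these (8.85%) were higher and 4 (2.08%) lower, with a median of 0.30. At 1 to 20 kb, 36 of 1033 genes (3.49%) were higher and 35 (3.39%) lower. At 20 to 100 kb, 20 of 1028 (1.95%) were higher and 30 (2.92%) lower. Regions of adult HSC only within 1 kb gave the opposite split, with 11 of 353 genes (3.12%) higher and 33 (9.35%) lower in fetal HSC. For regions open in all 4 populations the shares within 1 kb were 1.88% and 2.27%. A gene that passed the filter through its level in fetal HSC or in adult HSC alone had to differ, so these shares describe the tested genes and not all 388. Fewer genes were called with 1 fetal HSC library. Within 1 kb, 7 genes were higher and 1 lower without library 1 (background 0.889 and 0.857%), and 6 and 1 without library 2 (0.681 and 0.714%). Without adult HSC library 2, 11 were higher and 2 lower (1.51 and 2.05%). Without the 3 libraries that stand apart, 29 were higher and 11 lower (7.59 and 8.60%). Within 100 kb the counts were 33 higher and 12 lower without fetal HSC library 1, 27 and 13 without library 2, and 220 and 212 without the 3 libraries.

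**Figure D3:**
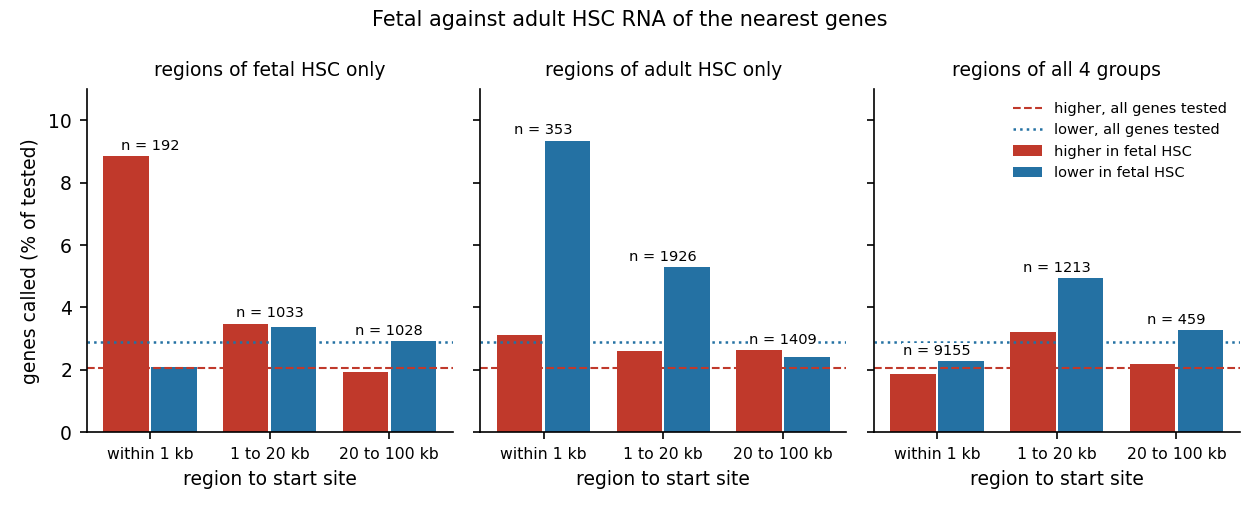
Percent of tested genes called higher (red) or lower (blue) in fetal than adult HSC (vertical axis), by distance from the nearest region to the start site (horizontal axis), for 3 classes of regions, with n genes tested. Dashed and dotted lines are the shares among all genes tested, 2.07 and 2.89%, and the red bar within 1 kb of fetal-HSC-only regions is at 8.85%.

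The 17 higher genes with a member within 1 kb of their start site in the count table were a mixed group. They were named after their values were seen. H19, an imprinted noncoding RNA of fetal tissues, has a member at chr7:142578128-142578392, across its start. H19 read 63.9 and 82.7 CPM in fetal HSC and 0.0634, 0.293 and 0.116 CPM in adult HSC, a log2 difference of 8.88 ± 0.50 (SE, adjusted p = 6.2e-05, edgeR). Both fetal libraries stood far above all 3 adult ones, and fetal LMPP, at 7.98 to 8.63 CPM, lay between. The closest peak of another list was 39.9 kb from this member.

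Spats2, a cytoplasmic RNA-binding protein gene first described in spermatogenesis, has a 1131-bp member at chr15:99125783-99126913 that spans the promoter printed above. It read 15.1 and 18.8 CPM in fetal HSC and 2.22, 0.976 and 1.10 CPM in adult HSC, a log2 difference of 3.57 ± 0.49 (adjusted p = 0.0021, edgeR). Mcts2, an imprinted retrogene copy of a translation factor gene, has a member at chr2:152686744-152687205. It read 5.19 and 4.53 CPM against 0.634, 1.11 and 0.831 CPM, a difference of 2.5 ± 0.45 (adjusted p = 0.0095, edgeR). Reads of Mcts2 and its parent gene may be shared, so its value is uncertain. Pou2f2, the octamer-binding factor Oct-2 of lymphoid cells, has a member at chr7:25132395-25132871. It read 25.2 and 30.4 CPM in fetal HSC and 6.56, 5.79 and 2.82 CPM in adult HSC, a difference of 2.46 ± 0.49 (adjusted p = 0.016, edgeR). In all 3 genes the fetal and adult HSC libraries did not overlap. With only 1 fetal HSC library kept, the adjusted p of Mcts2 was 0.076 or 0.064 and of Pou2f2 0.069 or 0.12 (edgeR), while Spats2 stayed under 0.05.

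Ckb, the brain-type creatine kinase, has a member at chr12:111672226-111672439, which runs over the start site and is one of the weaker peaks (signal 3.29, 1.28th percentile). Ckb read 20 and 21.3 CPM in fetal HSC and 3.84, 4.36 and 5.07 CPM in adult HSC, a difference of 2.22 ± 0.24 (adjusted p = 0.00053, edgeR). Its level in fetal LMPP, 51.9 to 74.3 CPM, was above that in fetal HSC, although no fetal LMPP peak was called there. Kcnk12, a potassium channel gene of the tandem pore family, has a member at chr17:87796975-87797347. It read 32.8 and 27.1 CPM in fetal HSC and 8.4, 9.76 and 6.98 CPM in adult HSC, a difference of 1.84 ± 0.23 (adjusted p = 0.0011, edgeR). Kmo, kynurenine monooxygenase of tryptophan breakdown, has a member at chr1:175631190-175631433, 0.027 kb from a peak of another list. It read 2.91 and 3.32 CPM in fetal HSC and 0 in all 3 adult HSC libraries, at least 35.7-fold higher at a floor of 3 counts per library (adjusted p = 0.00022, edgeR). Kmo was also present in both LMPP groups, at 11.7 to 22.0 CPM in fetal and 8.78 to 16.6 CPM in adult cells. Kcnk12 was highest in adult LMPP, at 74.7 to 103 CPM.

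Themis2, a signalling adaptor of lymphoid and myeloid cells, rose by 1.33 ± 0.23 (adjusted p = 0.0075, edgeR), from 9.16, 9.44 and 8.71 CPM in adult HSC to 19 and 26.6 CPM in fetal HSC. Its call was lost without fetal HSC library 2 (adjusted p = 0.13), and fetal LMPP read more than fetal HSC, 69.8 to 112 CPM. Ptgr1, a prostaglandin reductase, rose by 1.58 (adjusted p = 0.011) and Cyth4, a guanine exchange factor of Arf proteins in blood cells, by 0.77 (adjusted p = 0.021). Wdr86 rose by 2.15 (adjusted p = 0.035) and Lrrc25, a receptor-like protein gene of myeloid cells, by 4.16 (adjusted p = 0.030). Ces2b, a carboxylesterase with close paralogs, read 10.1 and 16.2 CPM against 0.349 to 0.761 CPM (adjusted p = 0.049). Camk1g and Cgnl1 were at 0 in all adult HSC libraries and read 2.28 and 3.34 CPM, and 2.87 and 1.73 CPM, in fetal HSC, at least 32.2-fold and 26.4-fold higher. Their adjusted p were 0.049 and 0.028 (edgeR). Camk1g read at most 0.391 CPM outside fetal HSC, so it passed the filter on low counts through fetal HSC. Its p-value is thus no independent support for a difference. The other 2 of the 17 carry predicted gene names, Gm4425 and Gm1673. Of these 8 named genes none kept its call under every left-out HSC library, and adjusted p without fetal HSC library 2 ran up to 0.32 for Ces2b. Mean RNA was higher in an LMPP group, where the region was not called, than in fetal HSC for Mcts2, Ckb, Kcnk12, Kmo, Themis2, Wdr86 and Lrrc25, and by a narrow margin for Pou2f2 and Cyth4.

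The 4 lower genes with a member within 1 kb of their start site in the count table were Coq8a, Dnaja4, Ticam2 and Il1rapl2. Many of the named higher and lower genes had this member within 1 kb of a peak of another list. The gap was 0.027 kb for Kmo, 0.145 for Kcnk12, 0.177 for Pou2f2, 0.207 for Coq8a, 0.221 for Cyth4 and 0.232 for Il1rapl2. It was 0.365 kb for Ticam2, 0.469 for Wdr86, 0.497 for Lrrc25 and 0.95 for Ptgr1. In the other named genes it ran from 1.66 kb (Themis2) to 39.9 kb (H19). The 17 higher and 4 lower genes leave out some whose RefSeq promoter window lay in a member but which this link missed. Among these, Tceal3 was called lower (log2 difference -2.72), and Hif3a (4.03) and Olfm1 (3.25) were called higher. Coq8a, a kinase-like protein of coenzyme Q synthesis, read 58.2 and 68.8 CPM in fetal HSC and 208, 186 and 317 CPM in adult HSC, a difference of -1.90 ± 0.25 (adjusted p = 0.0016, edgeR). Dnaja4, a heat shock cochaperone whose promoter is printed above, read 6.84 and 11.2 CPM against 24.0, 28.1 and 29.8 CPM, a difference of -1.60 ± 0.34 (adjusted p = 0.021, edgeR). The Dnaja4 member, at chr9:54698882-54700318, was wide (1437 bp, 6 summits) and 7.16 kb from any peak of another list, so here a region open only in fetal HSC stood at a gene with less RNA in fetal HSC. The fall of Dnaja4 missed the threshold without fetal HSC library 1 (adjusted p = 0.25), fetal HSC library 2 (0.072) or adult HSC library 2 (0.058). Ticam2, a Toll-like receptor adaptor, fell by 1.28 on the log2 scale (adjusted p = 0.012). Il1rapl2 read 0 in both fetal HSC libraries and 3.62 to 5.53 CPM in adult HSC, at least 43.7-fold lower (adjusted p = 0.018, edgeR). Outside adult HSC Il1rapl2 read at most 0.295 CPM, so it passed the filter through adult HSC. The p-value of Il1rapl2 is thus no independent support for a difference. Without fetal HSC library 2, adjusted p of these last 2 genes were 0.18 and 0.14 (edgeR).

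**Figure D4:**
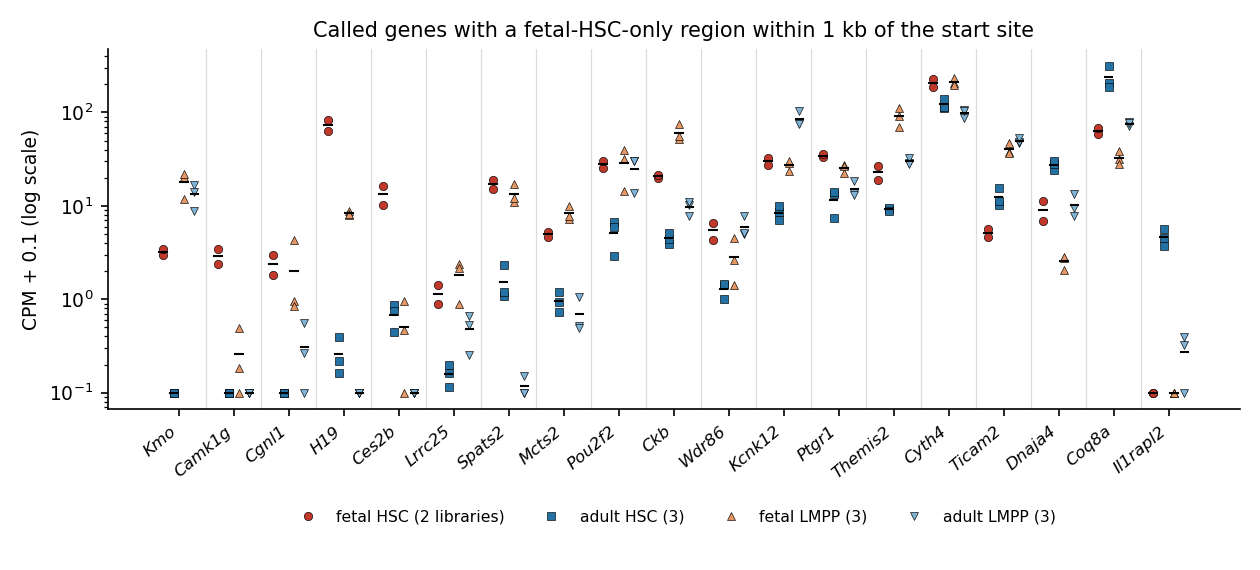
RNA of 19 genes that differed between fetal and adult HSC and have a fetal-HSC-only region within 1 kb of the start site. The vertical axis is CPM + 0.1 on a log scale, each symbol is a library and each dash a group mean, with genes ordered from the highest to the lowest log2 difference between fetal and adult HSC. Fetal HSC (circles) lies above adult HSC (squares) in the 15 genes to the left and below it in the 4 to the right.

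Fetal growth regulators held 9 linked genes among 24 (37.5%, against 15.7% of all genes with a start site). Of these, 8 were tested, 3 were higher in fetal HSC and none lower. In the whole list 10 of 22 tested genes were higher and none lower. Among all genes tested, the background for this and each list below, 2.07% were higher and 2.89% lower. Besides H19, the higher linked genes were Igf2bp3 and Dlk1. Igf2bp3, an RNA-binding protein of fetal tissues, has 2 members upstream, at chr6:49227272-49227491 and chr6:49228159-49228613, 12.4 and 13.5 kb from its start. It read 81.2 and 79.5 CPM in fetal HSC and 1.78, 1.43 and 3.19 CPM in adult HSC, a difference of 5.21 ± 0.35 (adjusted p = 3.6e-05, edgeR). Fetal LMPP, at 197 to 214 CPM, exceeded fetal HSC, but no fetal LMPP peak was called at either place, the nearest peak of any other list being 7.76 kb away. Dlk1, an imprinted Notch-like ligand, has 2 members 7.21 and 7.80 kb upstream, at chr12:109445850-109446358 and chr12:109445561-109445755. The first lies only 0.118 kb from a peak of another list. Dlk1 read 95.3 and 64.7 CPM in fetal HSC and 3.58 to 3.89 CPM in adult HSC, a difference of 4.41 ± 0.43 (adjusted p = 0.00026, edgeR). Dlk1 is also on the list of endothelial and stromal markers. Of the 8 tested genes of this list 3 were higher in fetal HSC and 1 lower. Among its 3 linked and tested genes Dlk1 was higher and Pdgfrb lower. The summed level of this list was 190 to 194 CPM in fetal HSC and 30.7 to 69.8 CPM in adult HSC. Dlk1 is itself counted in these sums, with the 95.3 and 64.7 CPM given above for fetal HSC. The part of such cells in the Dlk1 difference was not tested. In these sorted populations more cells that express a gene and more RNA per cell cannot be told apart.

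Id3, Id1 and Smad6, known targets of BMP signalling, were also higher in fetal HSC. Of 26 genes of the TGF-beta and BMP list 8 were linked (30.8%, against 15.7% of all genes with a start site). Of these 8, 3 were higher and none lower, while 3 of 24 tested genes of the whole list were higher and 1 lower. Id3, which blocks helix-loop-helix transcription factors, has a member 3.37 kb upstream, at chr4:136140312-136140614. It read 39.3 and 44.8 CPM in fetal HSC and 0.317, 0.521 and 0.698 CPM in adult HSC, a difference of 6.31 ± 0.43 (adjusted p = 3.6e-05, edgeR). Id1, of the same family, has a member 6.37 kb from its start on the downstream side, at chr2:152742453-152742761, 0.26 kb from a peak of another list. It read 33.1 and 36.0 CPM against 2.44, 1.69 and 2.72 CPM, a difference of 3.91 ± 0.33 (adjusted p = 0.00013, edgeR). Smad6, an inhibitory Smad, has a member inside the gene at chr9:64014944-64015198. It read 34.2 and 31.9 CPM against 9, 6.41 and 8.21 CPM, a difference of 2.07 ± 0.27 (adjusted p = 0.0014, edgeR). None of these 3 genes overlapped between fetal and adult HSC, and all 3 also rose in fetal against adult LMPP.

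Of 27 lymphoid priming genes 11 were linked (40.7%, against 15.7% of all genes with a start site), with 3 higher (Flt3, Satb1 and Id3) and none lower. The whole list had 5 of 24 tested genes higher. Satb1, a chromatin organizer of early lymphoid cells, has 2 members inside the gene, at chr17:51788223-51788524 and chr17:51787937-51788162, 44.2 and 44.6 kb from the start. It read 24.0 and 30.5 CPM in fetal HSC and 4.88, 6.12 and 2.29 CPM in adult HSC, a difference of 2.64 ± 0.33 (adjusted p = 0.0012, edgeR). Flt3, the receptor that the sort used to leave cells out, has a member 2.24 kb upstream, at chr5:147402621-147402852. It read 28.2 and 29.8 CPM against 14.3, 16.4 and 9.40 CPM, a difference of 1.12 ± 0.20 (adjusted p = 0.0089, edgeR), which missed the threshold with either fetal HSC library left out (0.062 and 0.095). Both genes were several times higher in LMPP, with Flt3 at 469 to 512 CPM in fetal LMPP and Satb1 at 198 to 246 CPM. Il7r, the interleukin 7 receptor, has 2 members upstream, yet read 0 and 0.195 CPM in fetal HSC and 0 in adult HSC, so its RNA was close to the limit of detection. Irf8, a factor of monocyte and dendritic cell fate, was at 27.8 and 32.7 CPM against 4.25 to 13.6 CPM without passing the test (adjusted p = 0.053), and it passed without adult HSC library 3 (0.015).

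Adhesion and cytoskeleton genes had 14 of 29 linked (48.3%, against 15.7% of all genes with a start site). Of these, 1 was higher, against 5 of 28 tested genes of the whole list. Cnn3, an actin-binding calponin, has a member 34.1 kb from its start on the downstream side, at chr3:121460486-121460773. It read 189 and 197 CPM in fetal HSC and 5.93, 11.4 and 10.2 CPM in adult HSC, a difference of 4.39 ± 0.30 (adjusted p = 3.6e-05, edgeR). Col18a1, a basement membrane collagen, read 223 and 249 CPM in fetal HSC and 17.3, 14.4 and 0.316 CPM in adult HSC, with 2 members at its locus. It missed the threshold (adjusted p = 0.060) and passed it without adult HSC library 3 (0.00044). The largest rises at 5 CPM or more also held Lrrc32, which tethers latent TGF-beta to the cell surface, at 18.1 and 15.5 CPM against 0.598 to 1.56 CPM (adjusted p = 0.0037, edgeR).

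Other listed genes were lower in fetal HSC. Megakaryocyte and platelet genes had 9 of 33 linked (27.3%, against 15.7% of all genes with a start site). Of these, 0 were higher and 3 lower, against 0 and 4 of 32 tested genes in the whole list. Cd9, a platelet tetraspanin, read 84.0 and 84.3 CPM in fetal HSC and 324, 215 and 377 CPM in adult HSC, a difference of -1.86 ± 0.25 (adjusted p = 0.0019, edgeR), with 1 member upstream and 1 inside the gene. Cavin2, a caveolar coat protein, read 28.2 and 13.5 CPM against 229, 126 and 132 CPM, a difference of -2.96 ± 0.51 (adjusted p = 0.013, edgeR). Its call was lost without fetal HSC library 2 (0.14). Clu, a secreted chaperone of platelet granules, read 24.3 and 9.75 CPM against 70.1, 70.7 and 96.6 CPM, a difference of -2.22 ± 0.48 (adjusted p = 0.026, edgeR), and was lost without adult HSC library 1 (0.051) or 2 (0.054) or fetal HSC library 2 (0.24). Vwf, the platelet and endothelial adhesion protein, has a member inside the gene and read 63.8 and 79.2 CPM against 191, 137 and 42.3 CPM, with overlapping groups (adjusted p = 0.57). Only 2 of 20 antigen presentation genes were linked, and both were lower, as were 18 of the 20 in the whole list. H2-Eb1, an MHC class II chain, read 0.197 and 0.219 CPM against 17.8 to 36.3 CPM (adjusted p = 0.0048), and Tapbp, the tapasin of class I peptide loading, read 175 and 191 CPM against 328 to 414 CPM (adjusted p = 0.0037). With 1 fetal HSC library left out, H2-Eb1 was at 0.076 or 0.091, and Tapbp at 0.067 without library 1. Of 30 interferon response genes 3 were linked.

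**Figure D5:**
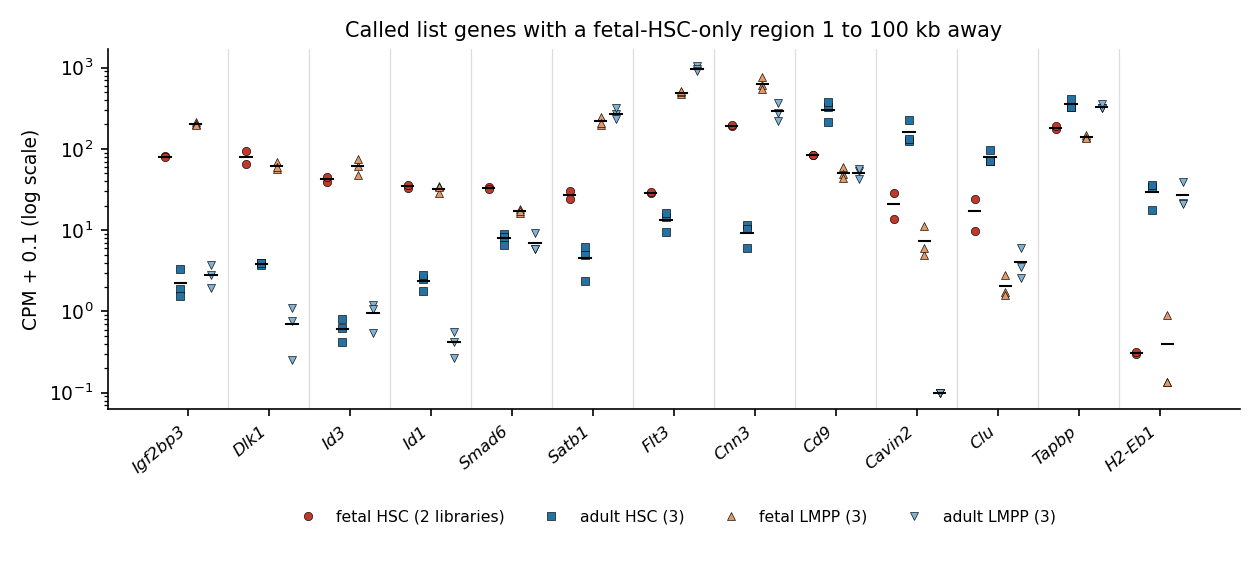
RNA of 13 listed genes that differed between fetal and adult HSC and whose nearest fetal-HSC-only region lies 1 to 100 kb from the start site. The vertical axis is CPM + 0.1 on a log scale, each symbol is a library and each dash a group mean. Fetal HSC (circles) is above adult HSC (squares) in the 8 genes on the left, from Igf2bp3 to Cnn3, and below it in the 5 on the right.

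Among the largest falls of linked genes, Aspa, an aspartoacylase, read 0.0393 and 0 CPM in fetal HSC and 11.3 to 19.2 CPM in adult HSC (adjusted p = 0.0089, edgeR). Alcam, a cell adhesion molecule of HSC, read 0.983 and 1.46 CPM against 9, 28.8 and 14 CPM (adjusted p = 0.0052), and its member lies inside the gene, 1.07 kb from the start and 0.239 kb from a peak of another list. Wwtr1, the Hippo pathway coactivator TAZ, read 0.197 and 0.366 CPM against 5.39 to 10.2 CPM (adjusted p = 0.018, edgeR). Outside adult HSC Wwtr1 read at most 0.366 CPM, so it passed the filter on low counts through adult HSC. Its p-value is thus no independent support for a difference. Osm, the cytokine oncostatin M, read 0.551 and 0.902 CPM against 7.29 to 8.44 CPM (adjusted p = 0.0087), and Ptn, the growth factor pleiotrophin, 1.81 and 1.78 CPM against 14.1 to 37.6 CPM (adjusted p = 0.030). Slc16a12, a transporter of the monocarboxylate family, read 0.629 and 1.56 CPM against 12.2 to 24.3 CPM (adjusted p = 0.0073), and Cngb1, a cyclic nucleotide-gated channel subunit, 0.708 and 0.536 CPM against 5.67 to 8.77 CPM (adjusted p = 0.030). In each of these 7 genes the fetal and adult libraries did not overlap. None of the 7 kept its call without fetal HSC library 1 (adjusted p from 0.069 for Aspa to 0.24 for Ptn), so they rest on both fetal libraries.

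The granulocyte and monocyte list had 6 of 23 genes linked, with Id1 alone higher, and the stem cell surface and niche receptors 4 of 25, with Flt3 alone higher. Stem cell regulators, erythroid genes and the Wnt and Notch list had 5, 4 and 2 linked genes, and none of these passed the test. Meis1, a homeobox factor of HSC, has a member inside the gene and read 277 and 323 CPM in fetal HSC and 443, 500 and 296 CPM in adult HSC (log2 difference -0.46, adjusted p = 0.42). Erg, an ETS factor of HSC, has a member 48.0 kb upstream and read 15.0 and 12.8 CPM against 8.72 to 16.1 CPM (adjusted p = 0.94). Myb, which drives progenitor growth, has 2 members 93.5 and 95.3 kb from its start, and read 355 and 385 CPM against 323 to 378 CPM (adjusted p = 0.94). Groups overlapped for Meis1, Erg and Myb. Several fetal and stem cell genes had no member within 100 kb as nearest gene, among them Lin28b, Igf2bp1, Igf2bp2, Hmga2, Igf2, Hlf, Mecom, Mycn, Runx1 and Gata2.

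Fetal HSC were also compared with fetal LMPP, a comparison that uses the same 2 fetal HSC libraries. Of the 2253 linked genes, 260 (11.5%) were higher in fetal HSC and 170 (7.55%) lower, where 9.85% of all genes tested were higher and 8.21% lower. Of the 192 tested genes with a member within 1 kb, 34 (17.7%) were higher and 11 (5.73%) lower, with a median log2 difference of 0.95 against 0.08 for all genes. Regions shared by fetal and adult HSC had a larger share within 1 kb, 22.7% higher and 5.02% lower, and regions of adult HSC only, which were not called in fetal HSC, had 17.6% higher and 7.93% lower. Of the linked genes within 100 kb, 105 were higher and 61 lower without fetal HSC library 1, 60 and 38 without library 2, 156 and 110 without fetal LMPP library 2, and 552 and 365 without the 3 libraries that stand apart. Background shares in those fits were 3.92, 2.53, 6.00 and 20.6% for higher genes and 2.22, 1.39, 4.56 and 17.9% for lower genes. Vwf was higher in fetal HSC than in fetal LMPP, with 63.8 and 79.2 CPM against 0.765 to 2.33 CPM (log2 difference 5.52, adjusted p = 0.00088), and so was Gata3, a factor of T cells and HSC, at 17.6 and 20.7 CPM against 5.58 to 8.16 CPM (1.47, adjusted p = 0.0089). Cnn3, Igf2bp3 and Ckb were lower in fetal HSC than in fetal LMPP (log2 differences -1.73, -1.34 and -1.56, adjusted p = 0.0040, 0.020 and 0.0032, edgeR).

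In fetal against adult LMPP, where the regions were not called, 188 of the linked genes (8.34%) were higher and 186 (8.26%) lower, against 7.08% and 8.29% of all genes tested. With a member within 1 kb, 21 of 192 (10.9%) were higher and 15 (7.81%) lower.

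Markers of 9 other cell types were looked up in the same way. Of 11 endothelial and stromal markers 5 (45.5%) were linked, of 9 macrophage markers 5 (55.6%) and of 7 megakaryocyte markers 1 (14.3%), against 15.7% of all genes with a start site. None of the markers of hepatocytes, erythroblasts, neutrophils, B cells, T and NK cells or mast cells, basophils and eosinophils had a member as nearest region within 100 kb. Summed erythroblast markers were 979 to 1106 CPM in fetal HSC and 79.1 to 199 CPM in adult HSC. Summed T and NK cell markers were 20.3 to 23.4 and 62.8 to 131 CPM, and megakaryocyte markers 885 to 899 and 1649 to 2624 CPM. Hepatocyte markers, at 56.4 to 142 and 54.4 to 81.9 CPM, and macrophage markers, at 19.7 to 26.4 and 17.5 to 45.1 CPM, overlapped between the HSC groups. The part of such cells in the peak lists was not tested.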

How the data were processed

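Accessibility was taken from 4 peak lists in mm10 coordinates, 1 per population, which hold reproducible peaks of 2 ATAC-seq libraries each at an irreproducible discovery rate of 0.1 and a mapping quality of 10, per the deposited file names. The signal value, the score and the −log10 q-value of each peak are the authors' own, as deposited, and they were compared only inside their own list. No source used here says if replicate reads were pooled for the last round of peak calling. Lines that describe several summits of 1 peak were reduced to distinct peaks, and the signal of the strongest line was kept. RNA values are expected counts per gene over its exons, deposited by the authors and made with HOMER without normalization, per the file headers. Of these values 22.5% were not whole, and all were rounded to whole counts. For RNA and ATAC-seq together, MACS2, Bowtie2 2.3.5, SAMtools 1.9, Picard, STAR, RSEM, Trim Galore and HOMER are named in the submitters' processing notes without roles. The RNA protocol in the labels keeps no strand and no molecular identifiers, so overlapping and near-identical genes can share reads.

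Peaks were merged in Python 3.11.15 with pandas 2.3.3. Distances run from a region to the nearest transcription start site of the count table, and a gene was linked to a region when it was the nearest within 100 kb. Of 25111 gene symbols, 24619 were found on the same chromosome in RefSeq (GRCm38.p6), and 98.5% of those lay inside the RefSeq gene. RNA was tested in R 4.3.3 with edgeR 4.0.16 (filterByExpr, TMM scaling, quasi-likelihood, a means model of the 4 populations over 11 libraries, Benjamini-Hochberg adjusted p under 0.05 over 14720 genes), and the fit was tested on simulated counts first. Every adjusted p is from edgeR unless DESeq2 (1.42.0) is named. CPM are counts scaled to a common total after TMM, and log2 differences are given ± SE. Intervals and floors of 3 counts cover counting error only. Fitted log2 differences of genes with a group at 0 depend on the prior count and are no bounds.

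Named genes were a fixed list of fetal and stem cell genes where linked, the 8 genes with most members, the nearest genes of the 8 members of highest signal, the 8 rises and 8 falls of largest size among called linked genes with at least 5 CPM and no overlap between libraries, and up to 3 linked genes of lowest p from each of 12 gene lists. Genes with clone or predicted names were left out, and genes called with a member within 1 kb were added after their values were seen. The members, the lists and the 9 marker lists were chosen with earlier results of these data known. Sequences around summits, and whether a region is exonic or intronic, were not analysed here, since no genome was used, and promoter windows of RefSeq were searched in their place. Some genes that the naming rule selected are not reported here.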

Additional observations from a re-analysis of the deposited data

Results flagged for a closer look

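For 9 named genes near regions unique to fetal HSC the fetal against adult difference was not the same in HSC and LMPP, by the interaction term of edgeR over all genes (adjusted p under 0.05). Values are the log2 difference in HSC minus that in LMPP. Satb1 was at 2.96 ± 0.44 (adjusted p = 0.014), with a difference of 2.64 in HSC and -0.32 in LMPP. Flt3 was at 2.11 ± 0.27 (adjusted p = 0.0070), higher in fetal HSC by 1.12 and lower in fetal LMPP, at -0.99. Kcnk12 was at 3.47 ± 0.31 (adjusted p = 0.0011), with 1.84 in HSC and -1.63 in LMPP. Cnn3 was at 3.25 ± 0.37 (adjusted p = 0.0036), higher in fetal cells of both kinds. Kmo was at 9.30 (adjusted p = 0.0030), a fitted value that depends on the prior count because adult HSC read 0. Id1 was at -2.81 ± 0.47 (adjusted p = 0.022), with a larger rise in LMPP (6.72) than in HSC (3.91). Spats2 was at -6.18 ± 0.96 (adjusted p = 0.017), with adult LMPP at 0 to 0.0505 CPM. Cd9 was at -1.87 ± 0.32 (adjusted p = 0.026), with -1.86 in HSC and 0.01 in LMPP. Cavin2 was at -13.95 (adjusted p = 0.0020), lower in fetal HSC, while fetal LMPP read 4.85 to 11.2 CPM and adult LMPP 0 in all 3 libraries, at least 67.2-fold lower. With 1 library left out, adjusted p reached 0.18 for Cd9, 0.16 for Id1, 0.12 for Spats2 and 0.099 for Satb1, each without fetal HSC library 2. Without fetal HSC library 1 it was 0.14 for Cd9, 0.14 for Id1 and 0.097 for Spats2. The call of Cd9 was also lost without adult HSC library 1 (0.066), adult LMPP library 1 (0.07) or 2 (0.057) or fetal LMPP library 2 (0.056), and that of Id1 without adult HSC library 1 (0.055) or fetal LMPP library 3 (0.058).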

How the results depend on the processing

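Results on the regions varied with the signal threshold. Only 782 regions were counted when fetal HSC peaks were limited to the upper part of their list by signal (the 50% with the highest values), and 3073 when all lists were. The share within 1 kb of a start site was then 3.07 and 14.6%, and it was 4.83% with peaks up to 500 bp apart merged, 9.17% within 2.5 kb and 5.08% with protein-coding start sites alone. The share over 100 kb was 52.9 and 30.7% under the 2 signal limits, 33.3% with wider merging and 37.7% with protein-coding start sites. Counting only direct overlaps, or overlaps of at least 50% of the shorter peak, moved none of these by more than counting error. Among linked genes, counts higher and lower in fetal than adult HSC were 139 and 138 with DESeq2, 220 and 212 without the 3 libraries that stand apart (chosen after seeing the data), 117 and 126 with every start site within 50 kb, and 8 and 2 for the fetal HSC signal limit. Within 20 kb 39 were lower. With 1 library left out they ran from 27 to 82 and from 12 to 65. Within 1 kb they were 27 and 9 with DESeq2, 29 and 11 without the 3 libraries, and 1 and 0 of 7 tested genes for the signal limit, and from 6 to 13 and from 1 to 4 with 1 library left out. In fetal HSC against fetal LMPP they were 552 and 365 without the 3 libraries, 144 and 98 within 20 kb, 469 and 356 with every start site within 50 kb, 16 and 14 for the signal limit, and from 60 to 208 and from 38 to 130 with 1 library left out; 295 were lower when only the 2 groups were fitted. Same-numbered fetal and adult HSC deviated together at r = 0.06 and 0.10, and fetal HSC and LMPP at -0.02 and -0.06. The 2 fetal HSC libraries deviate from their mean as mirror images, so these values cannot decide whether replicate numbers pair the samples. Adult HSC and adult LMPP of the same number deviated together (r = 0.15, 0.31 and 0.47). But adult HSC 1 followed adult LMPP 2 more closely (0.22), and adult HSC 2 and adult LMPP 1 were at 0.13. Library 3 of each ran against libraries 1 and 2 of the other (r from -0.37 to -0.19). Pairing by number and the libraries that stand apart were thus not told apart. A replicate block over the adult libraries, added after seeing the data, or over all libraries, changed no call of the 9 differences between HSC and LMPP given above. With the replicate number as a block, counts were 61 higher and 51 lower in fetal than adult HSC, 13 and 3 within 1 kb, and 190 and 147 against fetal LMPP. Of 42 called named genes, 17 stayed past the threshold under every fit counted, and no called gene changed sign in those fits. Fits with 1 LMPP library left out were not counted here. Leaving out fetal HSC library 1 or 2, which leaves 1 fetal library assumed to vary like the other groups, took 22 and 23 of the named genes back over the threshold. The planned motif share in summit windows was not run, because it needs a genome. Library totals of 19.8 to 64.8 M counts put the floor of 3 counts at 0.0463 to 0.152 CPM, and the depth of the ATAC-seq libraries is unknown from the lists.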
